A study of Mus musculus with 9 samples.

Results

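Wnt ligands are the secreted signals of the Wnt pathway, and the 8 described here are Wnt2, Wnt4, Wnt5a, Wnt5b, Wnt6, Wnt7a, Wnt9a and Wnt11. All probe sets annotated to these symbols were taken, a probe set being the group of short array probes that stands for a transcript. There are 17 such probe sets of 34945 with a single gene symbol, and 8 genes of 18193. They were followed in forelimb cells of mouse embryos sorted for green fluorescence of the Scx-GFP reporter, which marks tendon and ligament progenitors through the tendon gene Scx, at the embryonic stages E11.5, E12.5, and then E14.5, counted in days. Each stage has 3 arrays, lettered A, B and C, with 1 sample on each of the 9 Affymetrix arrays. All embryos carried the same reporter, no other allele or treatment is named, and the labels do not say how many embryos or litters went into a sample, so p-values measure the spread between these samples only. GFP can mark any cell in which the reporter is active or has lately been so, which limits the sort as a model of tendon.

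Wnt proteins are modified with a lipid by the acyltransferase Porcn and carried to the cell surface by Wls. They bind Frizzled receptors together with Lrp5 or Lrp6 to stabilise beta-catenin, or with Ror2, Ryk and planar polarity proteins to steer cell shape and movement. In the limb, Wnt7a from the dorsal ectoderm sets dorsal identity through Lmx1b, Wnt6 is another ectodermal ligand, Wnt5a drives outgrowth of the distal mesenchyme, Wnt5b is made next to and within growing cartilage, and Wnt4 and Wnt9a mark forming joints. Wnt2 is best known as a mesenchymal signal of the lung, and Wnt11 acts largely outside the beta-catenin arm.

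The stretches before the transcription starts of the 4 ligand genes called higher at E14.5 than at E11.5 are shown because these are the members whose level moved. Each is the 250 bases upstream of a RefSeq start in GRCm38.p6, written 5′ to 3′ on the gene's strand. Capitals mark GGGCGG (the GC box), CTTTGAT (a form of the site of the beta-catenin partners TCF and LEF) and TATAAA (the TATA box), each on either strand. Copies of GGGCGG may overlap one another.
Wnt2, chr6:18030446-18030695, minus strand: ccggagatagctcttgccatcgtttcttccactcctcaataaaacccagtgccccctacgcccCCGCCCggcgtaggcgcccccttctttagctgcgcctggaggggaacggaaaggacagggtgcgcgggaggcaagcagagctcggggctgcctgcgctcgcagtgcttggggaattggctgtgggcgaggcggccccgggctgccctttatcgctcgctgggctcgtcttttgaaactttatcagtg
Wnt4, chr4:137277385-137277634, plus strand: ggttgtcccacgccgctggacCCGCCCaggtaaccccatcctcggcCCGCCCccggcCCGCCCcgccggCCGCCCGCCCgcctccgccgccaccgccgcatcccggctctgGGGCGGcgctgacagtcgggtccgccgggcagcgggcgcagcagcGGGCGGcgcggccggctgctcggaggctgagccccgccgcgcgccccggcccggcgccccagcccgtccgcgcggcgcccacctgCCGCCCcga
Wnt9a, chr11:59306680-59306929, plus strand: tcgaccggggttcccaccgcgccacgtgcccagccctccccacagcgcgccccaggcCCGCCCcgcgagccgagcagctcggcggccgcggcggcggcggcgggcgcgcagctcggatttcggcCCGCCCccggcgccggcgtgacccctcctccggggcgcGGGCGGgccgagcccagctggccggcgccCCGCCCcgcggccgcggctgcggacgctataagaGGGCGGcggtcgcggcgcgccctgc
Wnt11, chr7:98834862-98835111, plus strand: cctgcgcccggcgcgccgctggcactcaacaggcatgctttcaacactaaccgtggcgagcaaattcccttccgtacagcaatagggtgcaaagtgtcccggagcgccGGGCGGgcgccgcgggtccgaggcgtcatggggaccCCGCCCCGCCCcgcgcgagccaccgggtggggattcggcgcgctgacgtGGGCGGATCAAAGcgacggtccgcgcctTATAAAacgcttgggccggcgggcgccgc

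Of the 8 symbols, 7 matched the promoter table (all but Wnt5a), and for Wnt11, which has more than 1 listed start, the first is shown. GGGCGG was found in 32.7% of 32851 windows of this length, and the windows shown hold 1 copy (Wnt2), 8 copies (Wnt4), 5 copies (Wnt9a) and 4 copies (Wnt11). Their share of G and C was 63.6% for Wnt2, 85.2% for Wnt4, 84.4% for Wnt9a and 70.8% for Wnt11, against a median of 52.4% over all windows. CTTTGAT, present in 3.21% of all windows, was found in the Wnt11 window, where its match begins 51 bases before the start. TATAAA, present in 12.4% of all windows, begins 29 bases before the same start. The window of the second Wnt11 start, not shown, holds neither of these nor GGGCGG, and has 1 copy of CANNTG (the E-box). Of the windows of Wnt5b, which was not called, 1 of 3 also holds CTTTGAT. The other 3 windows shown hold neither CTTTGAT nor TATAAA. The E-box CANNTG, the core bound by basic helix-loop-helix factors, was in 66.2% of all windows, with 2 copies in the Wnt9a window, 1 in that of Wnt4 and none in those of Wnt2 and Wnt11. These matches describe letters in a window and not binding.

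The arrays were on a common scale, with median signals between 68.7 and 118. The letter C arrays had the highest medians (106 to 118), above those of letter A (68.7 to 81.5) and letter B (79.6 to 94.5). Across tested genes, arrays of a stage correlated with r between 0.950 and 0.982, and arrays of different stages with r between 0.830 and 0.976. Scx itself had signals between 8692 and 21828 and was lower at E14.5 than at E11.5 (log2 -0.81 ± 0.22, adjusted p = 0.0164), a call lost without array B or C of E11.5 or array A or B of E14.5 (highest adjusted p = 0.0589). The summed signal of 10 tendon genes was 43952 to 46901 at E11.5, 51505 to 59799 at E12.5 and 89322 to 110989 at E14.5. Tenomodulin (Tnmd), a marker of differentiated tendon cells, lay below 22.7, the floor applied before log2, on 2 arrays, both at E11.5. Genes that mark other cell types were measured as well. The summed signal of 19 cartilage genes was 18887 to 24076 at E11.5 and 35331 to 41344 at E12.5, and at E14.5 it was 126148 (A), 31441 (B) and 16710 (C). Summed signals of 14 endothelial genes were 886 to 1412, 1596 to 1968 and 2610 to 2881 at the 3 stages in order, those of 20 muscle genes 5024 to 8088, 8490 to 15108 and 11698 to 15020, those of 12 nerve and Schwann genes 1791 to 1949, 2855 to 3049 and 3781 to 4700, and those of 14 genes of muscle connective tissue and dermal fibroblasts 29284 to 33412, 38144 to 44493 and 64141 to 80636. Those of 11 blood genes were 986 to 3617, 893 to 2435 and 822 to 1412. In such bulk samples fewer cells of a type and less RNA per cell cannot be told apart. The part of these cell types in the results below was not tested.

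**Figure D1:**
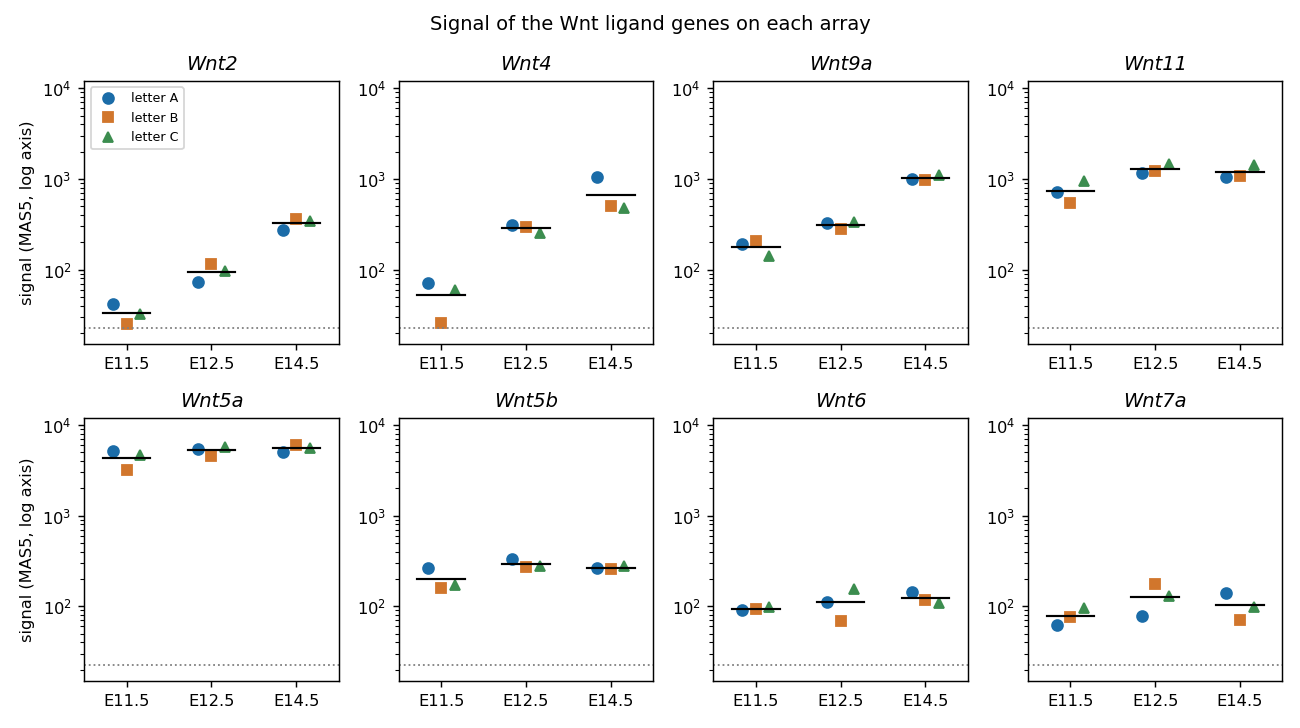
Signal of each Wnt ligand gene (y axis, MAS5 signal, log scale) at each stage (x axis), for the probe set that stands for the gene; symbols are arrays by letter, black bars are stage means, and the dotted line is the floor of 22.7. Wnt2, Wnt4 and Wnt9a climb over the stages, with stage means of Wnt9a at 179, 313 and 1019, whereas the arrays of Wnt5a, Wnt6 and Wnt7a overlap between neighbouring stages.

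At E14.5 relative to E11.5, 4 of the 8 ligand genes were called higher and none lower (limma, Benjamini-Hochberg adjusted p under 0.05 over 11575 tested genes). The members called were Wnt4, Wnt2, Wnt9a and Wnt11, while Wnt5a, Wnt5b, Wnt6 and Wnt7a were not called. Over all tested genes 22.9% were called higher and 17.7% lower in this comparison, 40.5% in all. An F-test for any difference among the stages called the same 4 members (highest adjusted p = 0.0261, Wnt11), against 33.7% of tested genes. At an unadjusted p under 0.05 there were 5 members higher and 0 lower, against 26.4% and 22.5% of tested genes. The median log2 change of the members was 0.58, against 0.00 over all tested genes. All 8 members were tested, that is, had a signal above 90.6 on at least 3 arrays, but Wnt2 and Wnt4 reached that signal at E12.5 and E14.5 alone, so their testing depended on the stages in which they were high. The arrays of the stages did not overlap for 5 members, all higher at E14.5 (Wnt2, Wnt4, Wnt6, Wnt9a and Wnt11), against 27.3% of tested genes that were higher without overlap and 24.1% that were lower.

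Wnt9a, a ligand of the forming joint, had the smallest standard error among the members that rose. Its signal was 192, 205 and 141 at E11.5, 327, 281 and 333 at E12.5, and 996, 973 and 1089.8 at E14.5, in arrays A, B and C. Each stage lay wholly above the one before it. The log2 change of E14.5 over E11.5 was 2.53 ± 0.16 (SE; 3 arrays each; adjusted p = 6.0e-06), a 5.76-fold difference, and it was positive in 3 of 3 letters (2.38, 2.25 and 2.96). The rise of E14.5 over E12.5 was 1.70 ± 0.16 (adjusted p = 0.00018). That of E12.5 over E11.5 was 0.82 ± 0.16 (adjusted p = 0.0298), but this call was lost without array A or C of E11.5, any array of E12.5, or array B of E14.5 (log2 0.66 to 0.90, highest adjusted p = 0.124), after quantile normalization (0.123) and after median centring (0.621). The same call was also lost without the letter A arrays (0.129), with no filter (0.0722), in a fit of only the 6 arrays of these stages (0.0656) and in a fit of all tested probe sets (0.0596). A further probe set of Wnt9a lay between 2.93 and 49.2 and below the floor on 6 of 9 arrays, and was not tested. With the mean of both probe sets the change of E14.5 was 1.501 over E11.5 and 0.90 over E12.5, both still called, and that of E12.5 over E11.5 was 0.60 and was not (adjusted p = 0.209).

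Wnt2 rose over both intervals. Its only probe set read 41.9, 25.1 and 32.1 at E11.5, 73.4, 115 and 96.3 at E12.5, and 270, 364 and 339 at E14.5. The 3 stages did not overlap, and the E11.5 signals lay just above the floor of 22.7. The log2 change was 3.31 ± 0.23 for E14.5 over E11.5 (adjusted p = 8.2e-06), 1.79 ± 0.23 for E14.5 over E12.5 (adjusted p = 8.1e-04) and 1.53 ± 0.23 for E12.5 over E11.5 (adjusted p = 0.0084). All 3 calls held with any 1 array left out. With the floor at 90.6 the changes were 1.83, 1.69 and 0.14, and the last was no longer called (adjusted p = 0.731).

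Wnt4, a ligand of joints and of several mesenchymal organs, was measured by 2 probe sets. Its brighter probe set read 71.9, 25.7 and 60.0 at E11.5, 307, 294 and 256 at E12.5, and 1038, 499 and 479 at E14.5. No stage overlapped another, and array A stood well above B and C at E14.5. The log2 change of E14.5 over E11.5 was 3.71 ± 0.40 (adjusted p = 1.1e-04), and 3.06 with the mean of the probe sets, so its rank against the 3.31 of Wnt2 depends on that choice. That of E12.5 over E11.5 was 2.57 ± 0.40 (adjusted p = 0.0098, and 0.0665 with no filter), and 1.65 with the floor at 90.6. E14.5 over E12.5 came to 1.14 ± 0.40 and was not called (adjusted p = 0.0677, 95% interval 0.25 to 2.03). With the letters as a replicate block, however, this step was called (adjusted p = 0.0301), as it was without array B of E11.5 (0.0228), with the floor at 90.6 (0.0086) and with the mean of the probe sets (0.0453). The other, dimmer probe set followed the same course with 56.7, 42.6 and 82.7, then 139, 164 and 141, then 462, 276 and 238. Its changes were 2.42 ± 0.30 for E14.5 over E11.5, 1.08 ± 0.30 for E14.5 over E12.5 (adjusted p = 0.0417) and 1.34 ± 0.30 for E12.5 over E11.5 (adjusted p = 0.0734), in a fit of all 20885 tested probe sets. That fit called 17.3%, 8.6% and 1.2% of probe sets higher in these comparisons.

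On array A of E14.5, where both probe sets of Wnt4 were highest, the cartilage genes summed to 126148, against 31441 on B and 16710 on C. Without that array the log2 change of Wnt4 over E11.5 was 3.35 (adjusted p = 3.6e-04), and the change over E12.5 was 0.78. The summed signal of the 11 measured joint interzone genes was 10242 to 13853 at E11.5, 19265 to 19867 at E12.5, and 25349 (A), 22474 (B) and 22463 (C) at E14.5. Gdf5, the growth factor of the joint interzone, averaged 343 ± 131 at E11.5, 1128 ± 212 at E12.5 and 616 ± 214 at E14.5 (SD, n = 3). E12.5 over E11.5 was called for Gdf5 (log2 1.78 ± 0.34, adjusted p = 0.0240), a call lost without array A or B of E11.5 or any array of E12.5 (highest adjusted p = 0.104), and E14.5 over E12.5 was not (-0.93 ± 0.34, adjusted p = 0.0792). Stage means of other genes of the list stand beside this, and a difference in course from Gdf5 was not tested. Erg, a transcription factor gene of joint cartilage, averaged 273 ± 105, 825 ± 218 and 794 ± 124 at the 3 stages in order. Sfrp2, a secreted Frizzled-related protein gene, averaged 4033 ± 536, 7669 ± 997 and 9210 ± 942. At E14.5 over E11.5, 5 of the 10 tested joint genes were called higher (Erg, Sfrp2, Jun, Osr1 and Prg4) and 1 lower (Dcx), with Prg4 tested through its E14.5 arrays alone. Of all tested genes, 22.9% were called higher and 17.7% lower. Erg is also in the endothelial list, Osr1 in that of muscle connective tissue and dermal fibroblasts, and Sfrp2 among the secreted Wnt modulators.

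**Figure D2:**
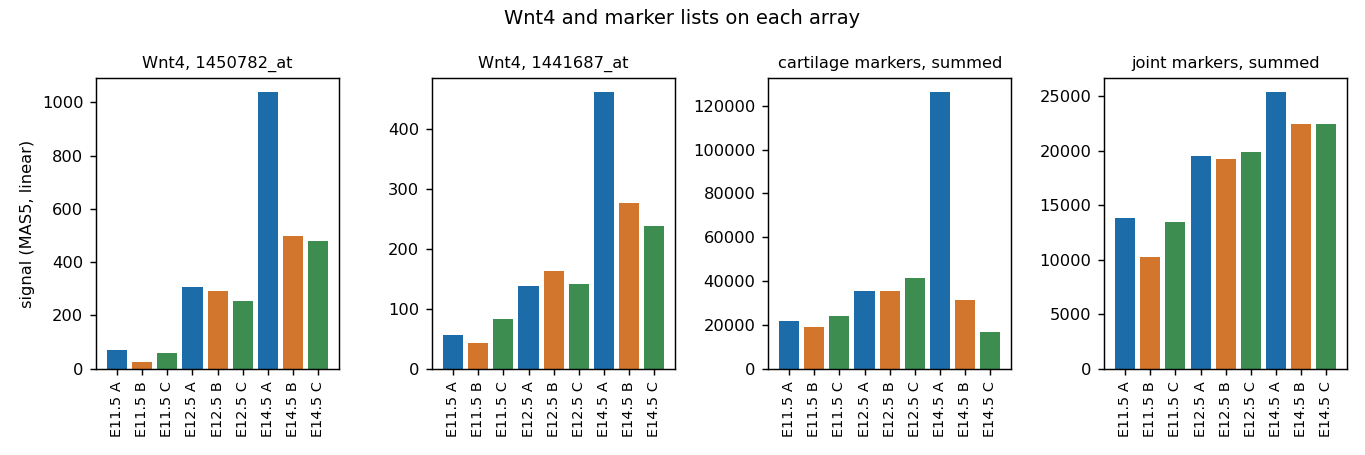
Signal of the 2 Wnt4 probe sets and summed signals of the cartilage and joint marker genes (y axes, MAS5 signal, linear scale from 0) on each of the 9 arrays (x axis), with bar colour for the array letter. Array A of E14.5 is highest for both Wnt4 probe sets (1038 and 462) and for the cartilage genes (126148), while the joint genes differ less among the E14.5 arrays (22463 to 25349). Sfrp2, a large part of this joint sum, read 8437, 8935 and 10260 on arrays A, B and C of E14.5, lowest on A.

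Wnt11 was called in the comparison of E14.5 with E11.5 alone. Its signal was 709, 540 and 953 at E11.5, 1162, 1234 and 1458 at E12.5, and 1042, 1089 and 1411 at E14.5. The E12.5 and E14.5 arrays lay above all E11.5 arrays and overlapped each other. The change of E14.5 over E11.5 was 0.71 ± 0.22 (adjusted p = 0.0261), positive in 3 of 3 letters. This call was lost without array A (0.0631) or B (0.0835) of E11.5 or array C of E14.5 (0.0888), without all letter A arrays (0.0868), after median centring (0.255) and with no filter (0.0618). It was also lost in a fit of only the 6 arrays of these stages (0.05005). The change of E12.5 over E11.5 was 0.84 ± 0.22 and missed the threshold (adjusted p = 0.0755). It was called with the letters as a replicate block (adjusted p = 0.0227), with a trended and robust prior (0.0315) and without array C of E11.5 (0.0337). E14.5 over E12.5 was -0.13 ± 0.22 (95% interval -0.61 to 0.36), negative in each letter.

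Wnt5a, the outgrowth ligand, showed no called change in the probe set that stands for it. That probe set read 5150.3, 3199 and 4655 at E11.5, 5431, 4516 and 5721 at E12.5, and 5018, 5943 and 5531 at E14.5. The stages overlapped, and array B of E11.5 lay below all others. The change of E14.5 over E11.5 was 0.37 ± 0.19 (adjusted p = 0.153, 95% interval -0.06 to 0.80). The 4 probe sets of the gene did not behave alike. Another probe set was called higher at E14.5 than at E11.5 (log2 0.57 ± 0.15, adjusted p = 0.0218 over all probe sets), with 1352, 1713 and 1665 at E14.5 against 986, 1154 and 1036 at E11.5. A further one was not (0.61 ± 0.36, adjusted p = 0.244), with 1127, 1879 and 1759 at E14.5 against 1216, 554 and 1571 at E11.5. The dimmest followed the array letters rather than the stages: it read 53.3 to 78.0 on letter A, 94.2 to 136 on letter B and 228 to 269 on letter C.

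**Figure D3:**
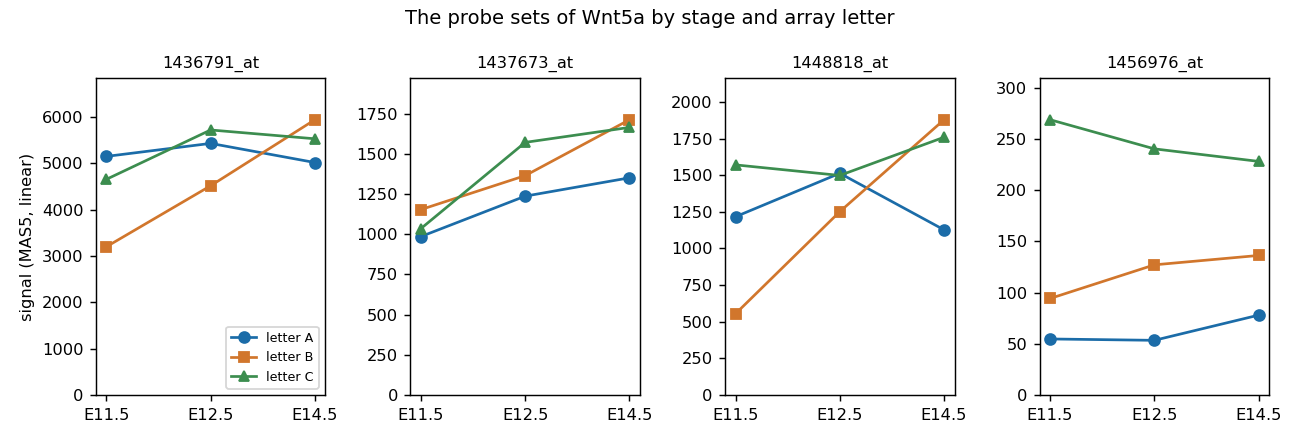
Signal of the 4 probe sets of Wnt5a (y axes, MAS5 signal, linear scale from 0) at the 3 stages (x axis), with a line for each array letter. In 1 of them all 3 letters are higher at E14.5 than at E11.5, in the others they are not, and in the dimmest the letters stay apart at every stage, with letter C at 228 to 269.

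Wnt5b, a ligand of the growth plate and its surroundings, read 261, 160 and 173 at E11.5, 331, 273 and 276 at E12.5, and 261, 258 and 278 at E14.5. All E12.5 arrays exceeded all E11.5 arrays, but the change of 0.60 ± 0.19 was not called (adjusted p = 0.144, 95% interval 0.17 to 1.02). It was called without array A of E11.5 (0.81, adjusted p = 0.0370), as was E14.5 over E11.5 (0.67, adjusted p = 0.0094, against 0.46 ± 0.19 and an adjusted p of 0.0801 with all arrays). The second probe set, whose _x_at suffix marks probes that can bind related sequences, ranged from 356 to 495 over all arrays and changed by 0.14 ± 0.16 at E12.5 over E11.5.

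The 2 ectodermal ligands were dim and not called. Wnt6 read 89.95, 93.8 and 97.3 at E11.5, 111, 68.0 and 156 at E12.5, and 142, 116 and 108 at E14.5. In this brighter probe set the E14.5 arrays all exceeded the E11.5 arrays, with a change of 0.37 ± 0.26 (adjusted p = 0.292, 95% interval -0.22 to 0.96). The other Wnt6 probe set, an _x_at set, read 39.1, 60.8 and 72.8 at E11.5 and 92.5, 42.2 and 106 at E14.5. Its stages overlapped, and it was not tested. Wnt7a read 61.7, 75.7 and 95.2 at E11.5, 77.8, 175 and 130.2 at E12.5, and 140.2, 71.2 and 97.5 at E14.5 in its brightest probe set, and its stages overlapped throughout. E14.5 over E11.5 changed by 0.38 ± 0.33 (adjusted p = 0.396, 95% interval -0.36 to 1.12). The other 2 probe sets of Wnt7a lay below the floor on 7 and 8 of 9 arrays, with highest signals of 45.9 and 24.8, so the values of this gene rest on 1 of its 3 probe sets.

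Ectodermal markers were measured beside them, and their part in these values was not tested. The summed signal of 22 ectoderm and epithelium genes was 2482 to 3164 at E11.5, 2757 to 3197 at E12.5 and 2822 to 4316 at E14.5, and 10 of the 22 were tested. Krt14, a keratin of the basal epidermis, averaged 26.9 ± 12.1, 29.6 ± 10.97 and 42.4 ± 22.3 at the 3 stages (SD, n = 3) and was not tested. At E14.5 over E11.5, 5 of the 10 tested were called higher (Epcam, Cdh1, Krt5, Cldn7 and Perp) and 1 lower (Krt8), and Cdh1 passed the filter on its E14.5 arrays alone. The call of Epcam was lost after median centring (log2 0.44, adjusted p = 0.343). Over all tested genes 22.9% were called higher and 17.7% lower. Lmx1b, the mesenchymal target of Wnt7a, was measured far above the floor. It read 945, 960.3 and 879 at E11.5, 948, 832 and 896 at E12.5, and 568, 717 and 473 at E14.5. All E14.5 arrays lay below all others, and the change of E14.5 over E11.5 was -0.68 ± 0.16 (adjusted p = 0.0082), lost without the letter A arrays (0.0681), after median centring (0.0640) and with the mean of the probe sets (0.0978). En1, the ventral ectoderm factor that represses Wnt7a, lay between 22.8 and 62.6 and was not tested.

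**Figure D4:**
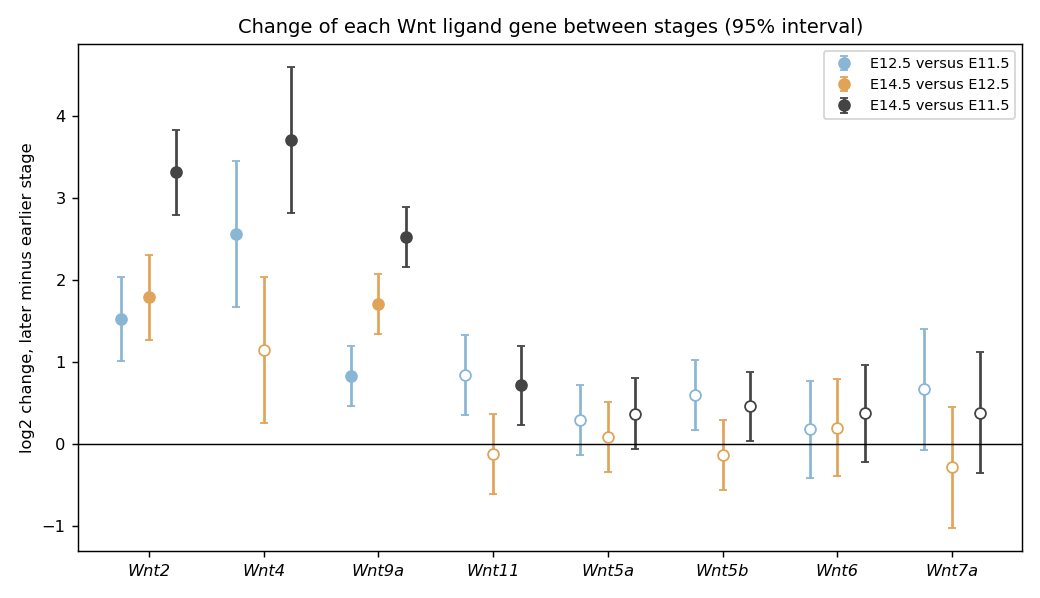
Log2 change of each Wnt ligand gene (y axis) in the 3 comparisons of stages, from the fit of all 9 arrays; bars are 95% intervals and filled symbols have an adjusted p under 0.05. Wnt2 and Wnt9a are called in all comparisons (E14.5 over E11.5 3.31 and 2.53), Wnt4 in 2 of 3, Wnt11 in 1, and the remaining genes in none.

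Between neighbouring stages, 3 of the 8 members rose at E12.5 over E11.5 (Wnt2, Wnt4 and Wnt9a) and 2 rose at E14.5 over E12.5 (Wnt2 and Wnt9a). None was called lower in either, and at an unadjusted p under 0.05 the counts of lower members were also 0 (3.74% of tested genes in the first interval and 17.9% in the second). Those of higher members at that threshold were 5 in the first (12.2%) and 3 in the second (18.1%). Over all tested genes 3.11% were called higher and 0.441% lower in the first interval, and 12.6% higher and 9.32% lower in the second, which spans more days. Either direction together made 3.55% in the first and 22.0% in the second. Wnt2 and Wnt9a were called higher in both in the main fit, as were 2.07% of tested genes. The call of Wnt9a in the first interval was lost under the alternatives given above. The total called in the first interval was 411 genes, and 210 without array A and 210 without array B of E11.5, 133 without array B and 125 without array C of E12.5, and 267 without array B of E14.5. In the second it was 2542 genes, and 1564 without array A of E12.5. The arrays did not overlap for 5 members that were higher at E12.5 than at E11.5, against 15.8% of tested genes (7.75% were lower), and for 3 that were higher at E14.5 than at E12.5, against 20.6% (21.9% were lower). The 2 intervals share the E12.5 arrays. The sizes of the log2 changes in the 2 intervals were compared in a contrast added after the values had been seen. With a second interval that spans more days, a steady change per day would also place E12.5 off the midpoint of E11.5 and E14.5. The contrast therefore does not measure pace. Its value was the departure of E12.5 from that midpoint. It was 0.71 ± 0.34 for Wnt4 (adjusted p = 0.490), 0.48 ± 0.19 for Wnt11 (adjusted p = 0.346), -0.44 ± 0.14 for Wnt9a (adjusted p = 0.249) and -0.13 ± 0.20 for Wnt2 (adjusted p = 0.857), and no member was called by limma. At an unadjusted p under 0.05 it would have named Wnt9a (0.0119), Wnt11 (0.0285) and Wnt5b (0.0497), against 11.4% of tested genes. Of all tested genes 0.769% were called by the adjusted p.

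Described over the 9 arrays, the log2 signal of Wnt2 correlated with that of Wnt9a at r = 0.95 and with that of Wnt4 at r = 0.92, and Wnt4 with Wnt9a at r = 0.85. The 9 points share their 3 stages. The genes most like Wnt2 were Ogn (r = 0.994), the matrix proteoglycan osteoglycin, and the transcription factor gene Maf (0.992). Those most like Wnt9a were Arhgef25 (0.991) and Clu (0.990), which encodes the secreted chaperone clusterin. Those most like Wnt4 were Tmem176b (0.990) and Jade2 (0.990). Wnt11 was most like Ebf1 (0.968), a transcription factor gene, and 0610012G03Rik (0.958). For the members without a call the highest r was 0.974 for Wnt5a with Fbxw4, 0.950 for Wnt5b with Msc, 0.919 for Wnt6 with Gab2 and 0.876 for Wnt7a with Invs.

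The other 11 Wnt genes of the mouse genome were also measured, and 1 of them, Wnt7b, was tested. It averaged 147 ± 2.90 at E11.5, 146 ± 68.7 at E12.5 and 175 ± 19.8 at E14.5 (SD, n = 3), and its change of E14.5 over E11.5 was 0.24 ± 0.30 (adjusted p = 0.556). For Wnt1, Wnt2b, Wnt3, Wnt3a, Wnt8a, Wnt8b, Wnt9b, Wnt10a, Wnt10b and Wnt16 too few arrays passed 90.6 for a test, and the highest signal among them was 114 (Wnt16 on array C of E14.5). Wnt3a, which neighbours Wnt9a in the genome, lay between 4.36 and 72.8, and Wnt10a, the neighbour of Wnt6, between 8.48 and 75.8. The detection calls of the authors' software were not used here, so a low signal cannot be told apart from background.

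Genes that carry, receive and limit the ligands were counted in lists written with earlier results of these data known. Of 13 tested genes of acylation, secretion and release, 6 rose and none fell at E14.5 over E11.5 (median log2 0.37, against 0.00 over all tested genes). The counts of this and the following lists are to be read against the 22.9% of tested genes called higher and the 17.7% called lower. The heparan sulfate proteoglycan gene Gpc4 averaged 3809 ± 901 at E14.5 and 592 ± 31.9 at E11.5 (2.66 ± 0.17, adjusted p = 5.5e-06), and the sulfatase gene Sulf1 5836 ± 320 at E14.5 and 1550 ± 183 at E11.5 (1.92 ± 0.17, and 1.196 with the mean of probe sets). Wls averaged 3740 ± 307 at E14.5 and 2199 ± 299 at E11.5 (0.77 ± 0.14, adjusted p = 0.0021, lost after median centring). Porcn, the acyltransferase gene, was at 243 ± 17.9 at E14.5 and 229 ± 61.5 at E11.5 (adjusted p = 0.666).

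Of 21 tested receptor and co-receptor genes 7 rose and 2 fell (median 0.38). Those with the largest rises were the R-spondin receptor genes Lgr6 (2.80 ± 0.40, and 1.46 with the floor at 90.6; its 3 E14.5 arrays alone passed the filter) and Lgr5 (1.92 ± 0.29, and 0.82 with the mean of probe sets), followed by the Frizzled genes Fzd8 (1.56 ± 0.20) and Fzd5 (1.55 ± 0.18). The 2 that fell were Fzd3 (-0.90 ± 0.29, adjusted p = 0.0313) and Fzd10 (-0.89 ± 0.21, adjusted p = 0.0086, and -0.44 with the mean of probe sets). The call of Fzd3 was lost without array B or C of E11.5 or array A or B of E14.5 (highest adjusted p = 0.106). Of 14 tested secreted modulators 7 rose and 2 fell (median 0.77). Cthrc1, which encodes a cofactor of planar polarity signalling, rose by 3.41 ± 0.50, the Dickkopf genes Dkk3 and Dkk2 by 3.14 ± 0.30 and 2.78 ± 0.20, and the antagonist gene Sfrp4 by 2.34 ± 0.53. Outside E14.5 only the letter C arrays of Sfrp4 exceeded 90.6, so its testing depended on E14.5. On arrays A, B and C of E14.5, Cthrc1 read 9216, 5193 and 3450, and Dkk3 read 1942, 832 and 800. Dkk2 and Sfrp4 were lowest on array A there, with 4729, 7739 and 7340, and 296, 425 and 482. The antagonist gene Frzb (-2.34 ± 0.24) and Draxin (-1.16 ± 0.16) fell.

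Of 25 tested genes of the beta-catenin arm 2 rose and 3 fell (median -0.13). Axin2, a direct feedback target, averaged 869 ± 209 at E11.5, 923 ± 108 at E12.5 and 771 ± 110 at E14.5, and was not called at E14.5 over E11.5 (-0.16 ± 0.19, adjusted p = 0.548). The 3 that fell were Lef1 (-0.90 ± 0.25, adjusted p = 0.0165), a nuclear partner of beta-catenin, Bcl9 (-0.69 ± 0.14), a coactivator, and the corepressor gene Tle3 (-0.47 ± 0.15, adjusted p = 0.0351), and the 2 that rose were the corepressor gene Tle2 (1.149 ± 0.18) and Bcl9l (0.41 ± 0.14, adjusted p = 0.0422). The call of Lef1 was lost without array A or B of E11.5 or array C of E14.5 (highest adjusted p = 0.0593), and that of Tle3 without array A or B of E11.5, B of E12.5, or A or C of E14.5 (highest 0.120). That of Bcl9l was lost with any 1 array left out other than B of E11.5 and A of E14.5 (highest 0.137), and its change was 0.02 with the mean of probe sets. After median centring Tle3 (adjusted p = 0.171) and Bcl9l (0.673) were not called either. Without the letter A arrays the calls of Lef1 (adjusted p = 0.121), Bcl9 (0.0518), Tle3 (0.168) and Bcl9l (0.139) were lost. Of 25 tested genes of the planar polarity and calcium arm 6 rose and 1 fell (median 0.16), a share of rises near that of all tested genes. Those named by size were Camk2d (1.93 ± 0.28), a calcium-dependent kinase gene, Nfatc1 (1.62 ± 0.20), a calcium-regulated transcription factor gene, Prickle1 (1.05 ± 0.20, and 0.32 with the mean of probe sets, not called) and Vangl1 (0.87 ± 0.18). After median centring the calls of Prickle1 and Vangl1 were lost (adjusted p = 0.0907 and 0.132). The gene that fell was Dact1 (-0.49 ± 0.17, adjusted p = 0.0384), an intracellular Wnt regulator. Its call was lost without array A or B of E11.5, B or C of E12.5, or A or C of E14.5 (highest adjusted p = 0.119), and after median centring (0.132).

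**Figure D5:**
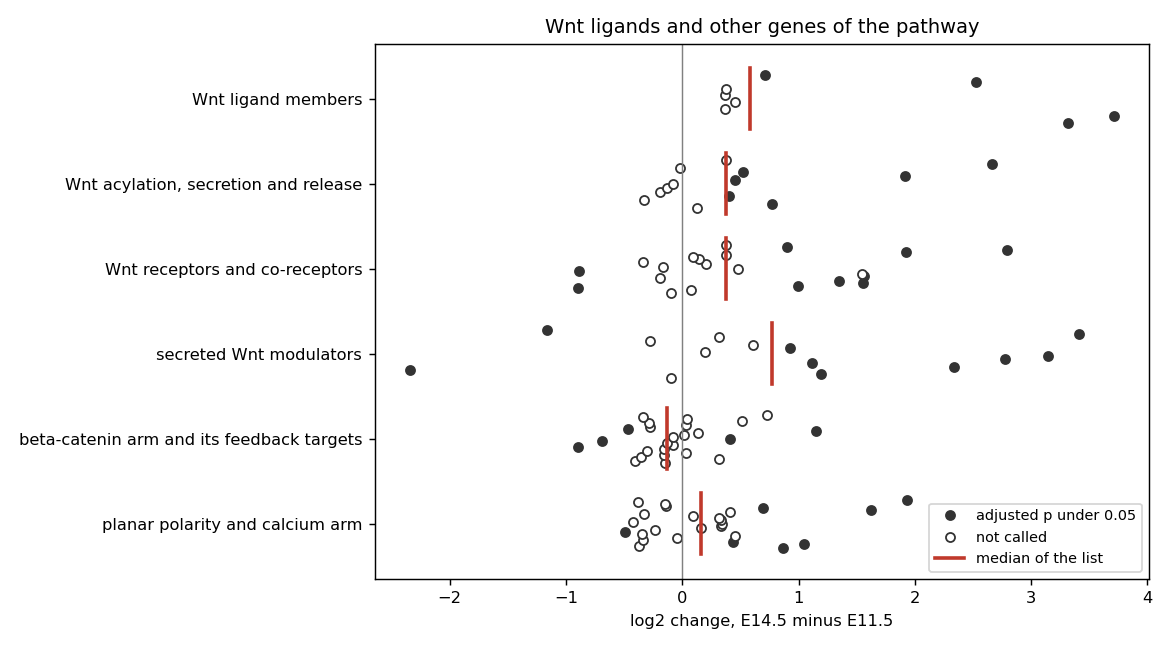
Log2 change of E14.5 over E11.5 (x axis) for every tested gene of the Wnt ligand group and of 5 other lists of the pathway (rows); filled circles have an adjusted p under 0.05, open circles do not, and red bars are list medians. The beta-catenin list has its median below 0 (-0.13), and the ligands and the secreted modulators have medians of 0.58 and 0.77.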

How the data were processed

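Samples were grouped by the stage and letter in their titles. The deposited values are intensities on a linear scale, 1 signal per probe set and array, and the submitters' processing notes name MAS5 and Expression Console 1.1 as the authors' tools. The trimmed mean of every array is 500, so no further scaling was done. Probe sets were named through GEO's platform annotation, with 34741 of 34945 gene identifiers found in the RefSeq table. Each gene is represented by the probe set brightest in mean log2, _x_at sets being taken last. Signals below the 25th percentile (22.7) were set to it before log2, and genes above the median (90.6) on at least 3 of 9 arrays were tested. limma 3.58.1 in R 4.3.3 compared the stages in 1 fit of all arrays, two-sided, with Benjamini-Hochberg adjustment; the script was tested on simulated data. Means and SDs are of signals before the floor, and changes are log2 with SE.

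The members and lists were chosen with earlier results of these data known. All members and the listed pathway genes were eligible to be named, up to 4 per list and direction, together with the 2 genes most like each member and fixed markers. Same-letter deviations from the stage means correlated at r = 0.520, 0.133 and 0.332 (A, B, C) between E12.5 and E11.5, and at 0.310, 0.121 and 0.289 between E14.5 and E12.5. Different-letter values lay between -0.386 and 0.122, and between -0.389 and 0.175, in these comparisons. Between E14.5 and E11.5 the same-letter values were 0.313, -0.0052 and 0.238, and different-letter values lay between -0.404 and 0.175. For letters A and C the same-letter value exceeded every different-letter value in each comparison. For letter B it did so between E12.5 and E11.5 alone. Arrays of letters A and C thus shared part of their deviations, but what the letters mark is not stated. The main fit was unpaired in every comparison, and the block's value is given where it changes a call. With the block 527, 3091 and 5262 of all tested genes were called in the 3 comparisons, against 411, 2542 and 4691 without it. Scan dates and slides are not given in the sources used here. The number of arrays limits the precision.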

Additional observations from a re-analysis of the deposited data

How the results depend on the processing

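Alternatives changed 1 choice at a time: the floor, the filter on dim genes, the probe set of a gene, the scaling, the block, the prior, the arrays fitted and each array left out. For the members, 463 of 498 recomputed changes kept their direction or stayed uncalled, and their side of the threshold, 13 became called and 22 lost their call; no called change turned its sign. The number of members called higher was 3 at E12.5 over E11.5, and 2 in 11, 3 in 6, 4 in 2 and 1 (Wnt2, with no filter) in 1 of the alternatives. It was 2 at E14.5 over E12.5, and 2 in 13, 3 in 6 (Wnt4 gained) and 1 (Wnt9a, with the stricter filter, under which Wnt2 was not tested) in 1. At E14.5 over E11.5 it was 4, and 3 to 5 under the alternatives. With the letters as a replicate block it was 4, 3 and 5 in the same order of comparisons; at E14.5 over E11.5 the block added Wnt5b (adjusted p = 0.0496), and besides the values given for Wnt4 and Wnt11 it changed no other call of a member. Median centring moved the median of all genes at E14.5 over E11.5 to -0.20, so changes under it are to be read against that shift. It lowered the count of all genes called to 177, 912 and 2341 in the 3 comparisons, from 411, 2542 and 4691, and put 69.2% instead of 57.6% of the calls at E14.5 over E12.5 on the higher side. The count at E12.5 over E11.5 was 156 with the mean of probe sets, 182 with no filter and 249 without the letter A arrays, and that at E14.5 over E12.5 was 1084 without them. Background correction and scan batch could not be varied from these values. The size of the changes of Wnt2 and Wnt4 over E11.5 depends on the floor.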

Other observations

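Sp5, a transcription factor gene that responds directly to beta-catenin, had a course unlike that of the ligands and was chosen after its values were seen. It read 62.1, 96.3 and 62.1 at E11.5, 23.8, 34.3 and 16.8 at E12.5, and 94.6, 91.8 and 124 at E14.5, so all E12.5 arrays lay below all others. E12.5 over E11.5 changed by -1.44 ± 0.23 (adjusted p = 0.0112, and not called without array C of E12.5 (0.0571), without the letter A arrays (0.0700), with no filter (0.0575) or with a trended prior (0.0575)) and E14.5 over E12.5 by 1.95 ± 0.23 (adjusted p = 5.0e-04). With the floor at 90.6 these changes were -0.03 and 0.18 and neither was called. The signals of this gene are near the floor. Outside E14.5 only array B of E11.5 exceeded 90.6, the signal that the filter asked for. The testing of Sp5 thus depended on the stage in which it was highest, and the cause of its course was not tested.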
